A study of Gossypium hirsutum with 63 samples.

Results

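This account concerns 130 of the 80325 genes in the expression table of a heterosis study in upland cotton (Gossypium hirsutum), namely the genes that were switched on in 1 inbred parent and off in another. A gene was taken as on in a parent when all 9 of its libraries (3 each of leaf, flower buds and ovule) exceeded 1 FPKM, and as off when all 9 lay below 0.1 FPKM. FPKM is a fragment count scaled by transcript length and library size, so it can be compared between genes. A parent that met neither limit is called between. The parents' values chose these genes, and the parental levels are therefore given as a description without a test. Only the hybrids' libraries, which the choice did not use, were tested, apart from an alternative fit that also held the parents.

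RNA came from 7 genotypes of field-grown plants at the squaring stage, with 3 libraries per genotype and tissue and 63 in all. The maternal inbred line A (SJ48) was crossed with the paternal inbred lines B (Z98-15), C (851-2) and D (DT-8). The resulting F1 hybrids were H (labelled SJ48x98-15), M (SJ48x51-2) and L (SJ48xT-8), chosen by the study for high, medium and low heterosis of yield. Leaves of different plants were pooled, flower buds of several sizes were pooled, and ovules were taken at 1 day post anthesis. All 3 hybrids thus carry the same mother, and differ in the father.

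Upland cotton is an allotetraploid, with an A and a D subgenome that hold homoeologous copies of most genes. Inbred lines of a crop can differ in whether a gene is present at all, and in whether a copy that is present is transcribed. An F1 plant receives 1 chromosome set from each inbred parent. A locus that is active in a single parent is therefore a marker of the allele that this parent passed on, and in the simplest case of a single active allele its transcript level is intermediate between the parents.

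Total FPKM ran from 410556 to 449250 in leaf, from 413789 to 454309 in flower buds and from 418915 to 477980 in ovule. The relative depth, read from the smallest steps between low values, differed by up to 1.47, 1.38 and 1.52 times within these tissues. No read counts per gene were at hand, so no counting error is given, and p-values measure the spread between libraries. The summed level of a leaf list of 229 genes was 10185 to 16317 FPKM in leaf libraries and at most 1185 elsewhere, and that of an ovule list of 113 genes was 1391 to 2591 FPKM in ovule and at most 696 elsewhere. A list of 82 pollen and anther genes did not part flower buds (440.2 to 2978 FPKM) from leaf (374.6 to 978 FPKM). Reads that align to both homoeologs may be split between copies, and copies of these genes could not be told apart here.

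Libraries of H and M stood apart at these genes. Of the 28 genes that were off in both A and B, 11 reached 0.1 FPKM or more in H leaf library 2, 14 in H leaf library 3, 11 in H flower bud library 3 and 11 in H ovule library 3. In the other 5 H libraries at most 3 of the 28 did so. M held levels that neither A nor C held, in all 9 of its libraries, as described below. L showed neither: of the 14 genes off in both A and D, no L library had more than 2 at or above 0.1 FPKM.

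B was off most often. Among the 130 genes, B was off at 84 and on at 30, A was off at 50 and on at 53, D was off at 39 and on at 72, and C was off at 26 and on at 75. Over all 80325 genes the 4 parents were much alike, with 39.6 to 40.3% of genes on and 12.4 to 13.3% off. Counted by pairs, 56 genes were on in C and off in B, 55 were on in D and off in B, and 35 were on in A and off in B. The rarest pairs were B on with C off (7 genes) and A on with C off (9 genes).

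All 4 parents were either on or off at 60 genes, in 14 patterns, and with the parents between there were 42 patterns in all. The commonest was a gene silent in B alone (17 genes). Next came genes on in C and D but off in A and B (9), genes on in D alone (8) and genes on in C alone (6). D alone was off at 5 genes, and A alone at 3. A single gene each was on in A alone (MSTRG.14128) and in B alone (MSTRG.3111). Alone means here that the other 3 parents all met the opposite limit.

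**Figure D1:**
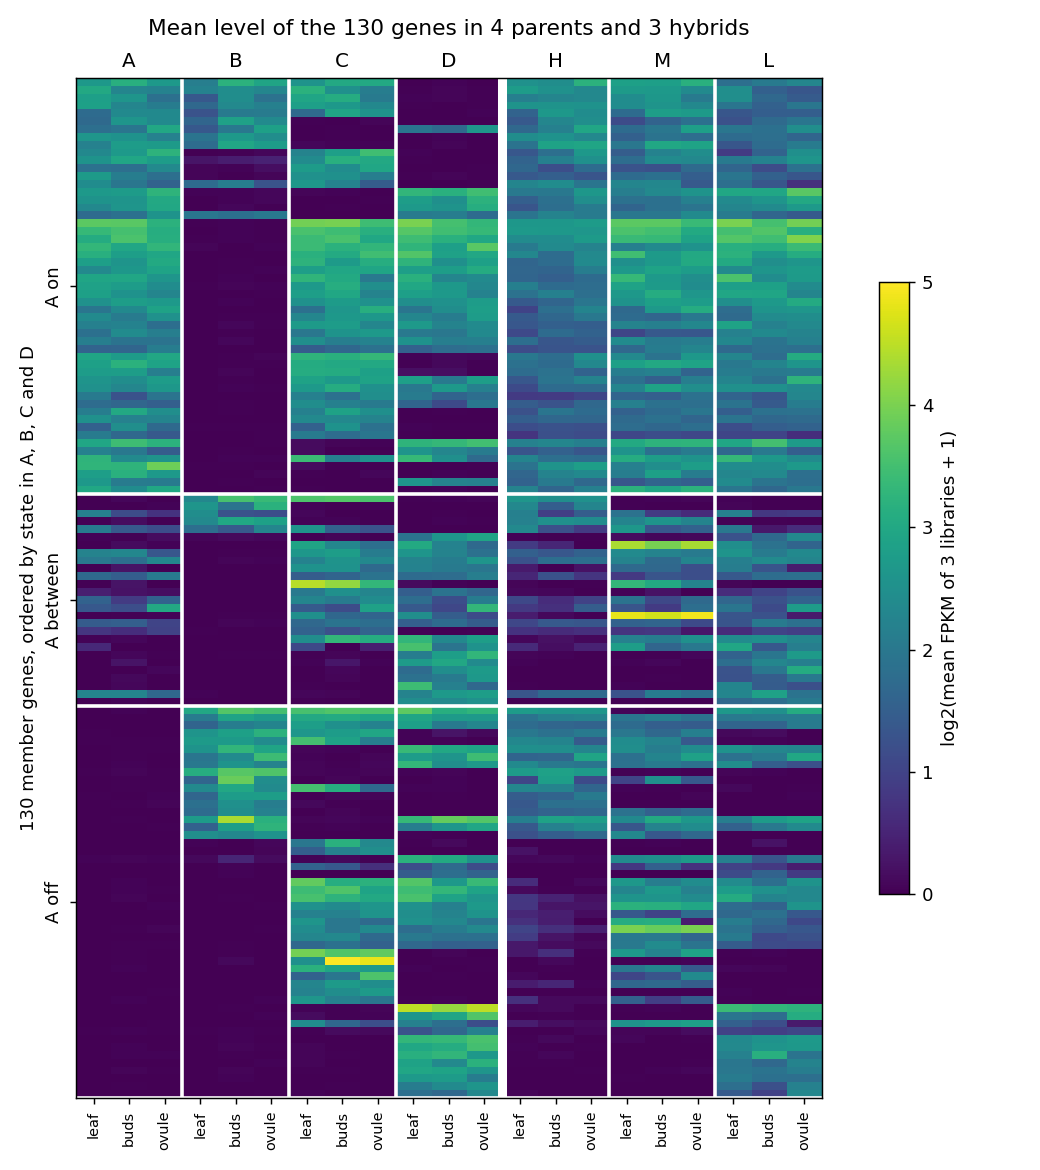
Mean level of each of the 130 genes (rows, ordered by the state in A, B, C and D) in the 7 genotypes and 3 tissues (columns), as log2(mean FPKM of 3 libraries + 1) by colour, with the scale ending at 5. Dark blocks are parents that were off, B holds the most of them, and the hybrids fill many rows at a level between their parents.

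The active alleles were of moderate level. The mean over the on parents was 1.6 to 22.8 FPKM, with a median of 5.0 FPKM, against a median of 6.90 FPKM for the 28128 genes on in all 4 parents. The limits themselves set much of this range. In the off parents, 1371 of 1791 values (76.5%) were exactly 0, and 23 genes were at 0 in every library of every off parent. Just inside the limits lay MSTRG.7938 (lowest library of the on parent 1.02 FPKM) and MSTRG.46998 (highest library of the off parent 0.099 FPKM). Just outside lay MSTRG.48441, with a lowest library of 0.987 FPKM, and MSTRG.37586, with a highest library of 0.102 FPKM.

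Few of these genes carry a name. Of the 130, 127 were loci built by the transcript assembly (MSTRG numbers), and 108 (83.1%) had no gene name, against 22.5% of the 36032 genes on in at least 1 parent. A description was given for 10 members, a GO term for 11 and a KEGG pathway for 6. Of 15 functional lists searched by word in the descriptions, immune receptors, ribosomal proteins, ubiquitin and F-box proteins, other protein kinases, hydrolases and RNA or DNA processing held 1 member each. Receptor kinases, cytochromes P450, glycosyltransferases, terpene synthases, transcription factors, pentatricopeptide repeat proteins, transporters, chaperones and oxidoreductases held none. With 10 described members, these counts cannot show that a class is rare or common.

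Position could be read only indirectly, since coordinates were not used here. Assembly loci are numbered along the genome, and 99.6% of consecutive named loci lay on the same chromosome. The position of 21 members was given by their own name, 13 of them on chromosomes of the D subgenome. Another 103 members were placed by their named neighbours, 68 on chromosomes of the A subgenome and 35 (34.0%) on those of the D subgenome. Of the 11236 unnamed loci that could be placed, 16.8% lay on the D subgenome. These loci were taken at any level, whereas members had to exceed 1 FPKM in all libraries of a parent. No share was computed for unnamed loci that did so. The 124 placed members fell on 25 chromosomes, most often on A13 (12 genes) and A07 (9). There were 4 pairs of members within 10 numbers of each other, and in no pair was the parental pattern the same, with between counted as a state. MSTRG.20076 and MSTRG.20077 shared A off and D on, and differed in that B and C were between for the latter.

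One such pair carries 1 gene name. MSTRG.20076 and MSTRG.20077 both bear the name Gh_D01G1093, and for the latter the files describe an embryo defective gene, after a class of Arabidopsis genes needed for embryo development. MSTRG.20076 ran from 5.03 over 10.4 to 11.5 FPKM in C (lowest, median and highest library), from 5.74 over 7.71 to 11.9 in D, and never above 0.0923 in A or B. Both M (3.24, 3.98 and 5.88) and L (3.59, 4.89 and 6.71) lay wholly above H, whose highest library was 0.115 FPKM. MSTRG.20077 was at 0 in every H library, at 0.491 to 2.18 FPKM in M and at 0.116 to 1.39 in L.

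Among the genes silent in B was MSTRG.3514 (Gh_A03G1463), a RING/U-box protein, of the class of enzymes that attach ubiquitin to their targets. Its lowest, median and highest libraries were 5.32, 9.56 and 11.8 FPKM in A, 5.4, 9.61 and 11.8 in C, and 7.84, 10.1 and 14.2 in D, against at most 0.0587 in B. H lay at 4.24, 5.42 and 6.1 FPKM, M at 6.88, 9.78 and 12.8, and L at 6.71, 10.8 and 12.3, so every H library was below every M and L library. Between H and L in leaf the difference was -0.78 ± 0.16 (SE, n = 3) on the log2(FPKM + 1) scale, with a limma adjusted p of 0.04, which is less than the 2-fold change required for a call.

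MSTRG.36362 (Gh_D11G3112) belongs to the NB-ARC disease resistance proteins, intracellular immune receptors that recognise pathogen molecules. A (1.84 to 3.4 FPKM), C (1.35 to 2.74) and D (1.62 to 2.82) were on, and B did not exceed 0.0302 FPKM. H ran from 1.07 over 1.35 to 1.72 FPKM, below all libraries of M (1.9, 3.35 and 4.16) and of L (1.86, 2.39 and 3.37). None of its hybrid differences was called, the largest being -0.99 ± 0.17 between H and M in ovule with a limma adjusted p of 0.11. The same pattern of parents was seen for Gh_D11G1674, an alpha/beta-hydrolase, at 1.99 to 4.69 FPKM in A, at most 0.0861 in B, and 1.14 to 2.98 in H.

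MSTRG.6059 (Gh_A05G2005) is described as calmodulin-domain protein kinase 7, of a family that links calcium signals to phosphorylation. It was on in A (2.57, 5.16 and 6.74 FPKM) and B (1.93, 5.74 and 7.78), and off in C (at most 0.0945) and D (at most 0.0868). H (2.23, 5.58 and 7.86) and M (2.52, 6.63 and 6.97) spanned nearly the range of the on parents. L ran at 1.31, 2.56 and 3.91, and within each tissue every L library lay below every library of A, B, H and M. In flower buds H exceeded L by 1.11 ± 0.13 and M exceeded L by 1.22 ± 0.13 on the log2 scale (limma adjusted p = 0.0248 and 0.0113). The mean over 9 libraries was 4.98 FPKM in A, 5.45 in M and 2.39 in L, although the father was off for M and L alike.

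MSTRG.22737 (Gh_D03G0742), described as a D-aminoacid aminotransferase-like enzyme, was on in B (1.21, 4.28 and 7.09 FPKM), while A and D were off and C, which did not exceed 0.109, was between. H ran from 1.54 over 1.94 to 3.32 FPKM, and no M or L library exceeded 0.0833. H was higher than L by 1.48 ± 0.1 for leaf, 1.59 ± 0.15 for flower buds and 2.01 ± 0.11 for ovule (limma adjusted p = 0.000712, 0.00802 and 0.000364). Among the genes on in D with A and B off and C between was Gh_D08G1244, a glycolipid transfer protein, at 1.21 to 5.3 FPKM in D, 0.65 to 1.67 in L and at most 0.125 in H. Another was MSTRG.5582 (Gh_A05G1263, no description), at 15, 20.7 and 25.2 FPKM in D, 6.49, 8.04 and 12.9 in L, and at most 0.19 in H and 0.0818 in M.

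MSTRG.36863 (Gh_D12G0557) encodes ribosomal protein L31, a part of the large ribosomal subunit. B was on (1.03, 1.42 and 4.83 FPKM), D was off (at most 0.0449), A ran from 0.597 to 5.57 and C did not exceed 0.113. All 3 hybrids expressed it, H from 0.616 to 6.14, M from 0.427 to 3.1 and L from 0.451 to 4 FPKM. Their ranges overlapped. MSTRG.7413 (Gh_A06G0372), a galactose oxidase/kelch repeat protein, was on in A (2.38 to 9.37) and C (2.77 to 10.4) and off in D. L leaf libraries 2 and 3 were at 0 for this gene, whereas library 1 was at 2.45 FPKM.

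H and L lay close to the half-way level. Where 1 of its 2 parents was on and the other off (52 genes), the H mean was 0.338 to 0.872 of the on parent, with a median of 0.52. For L (51 genes) it was 0.375 to 0.752, with a median of 0.547. By tissue, the medians for H were 0.507 ± 0.0398 for leaf, 0.519 ± 0.0745 for flower buds and 0.585 ± 0.0401 for ovule (SD over the 3 hybrid libraries). The medians for L were 0.534 ± 0.0388, 0.502 ± 0.0503 and 0.58 ± 0.0203. Without H leaf libraries 2 and 3 and without library 3 in the other tissues, the H medians were 0.493 (1 leaf library), 0.517 and 0.61. No H or L gene of this kind fell below 0.1 or rose above 1.5 of its on parent.

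The 2 origins of the active allele were near each other in L, with medians of 0.545 for the 19 genes on in A and 0.566 for the 32 on in D. In H they were 0.508 for the 35 genes on in A and 0.59 for the 17 on in B. The gap in H lay in leaf, where the medians were 0.42 and 0.744, against 0.525 and 0.518 in flower buds and 0.588 and 0.531 in ovule. The H leaf median over both origins ran from 0.431 to 0.641 when 1 replicate number was left out. The medians by origin were not recomputed in this way, so how far the gap depends on single libraries is not known. Where both parents were on, the hybrid was near the parents' mean: the median ratio was 1.07, 1.02 and 1.16 in leaf, flower buds and ovule of H (9 genes), and 0.968, 0.998 and 0.922 in L (25 genes).

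**Figure D2:**
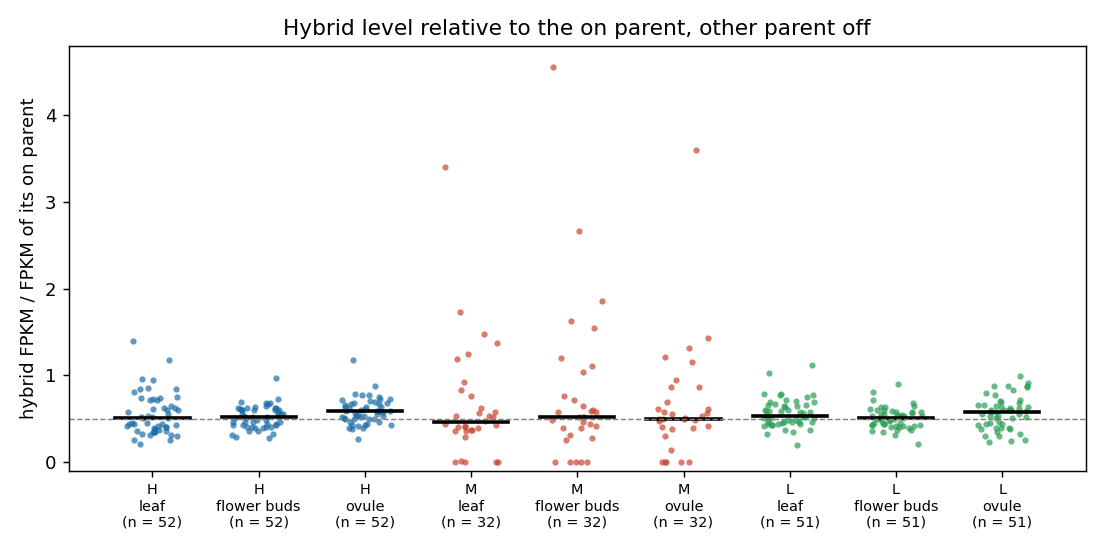
Level of each hybrid relative to its on parent (y axis, ratio of mean FPKM) for each gene with 1 parent on and the other off, by hybrid and tissue. Each point is 1 gene, black bars are medians and the dashed line is 0.5. The H and L points crowd around the line, while M has 5 genes near 0 and others above 1.5.

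M did not follow A and C in this way. Its median ratio looked alike, at 0.456 ± 0.0275 for leaf, 0.52 ± 0.0234 for flower buds and 0.502 ± 0.0248 for ovule (SD over 3 libraries, 32 genes). The single genes, however, ran from 0 to 3.77 of the on parent, with 5 genes below 0.1 and 3 above 1.5. Departures were counted in 5 ways with limits set after the values had been seen, so no test is given: M below 0.1 FPKM though C was on and A off (5 of 23 genes), M above 1 FPKM though A was off and the mean of C was below 0.1 (9 of 24), M under 0.6 of the parents' mean though both were on (13 of 38), M above 0.9 of A though C was off (4 of 9), and M above 1.4 of C though A was off (4 of 23). Together these were 35 of 94 genes. The same counts were 0 of 93 in H against A and B, and 0 of 93 in L against A and D.

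**Figure D3:**
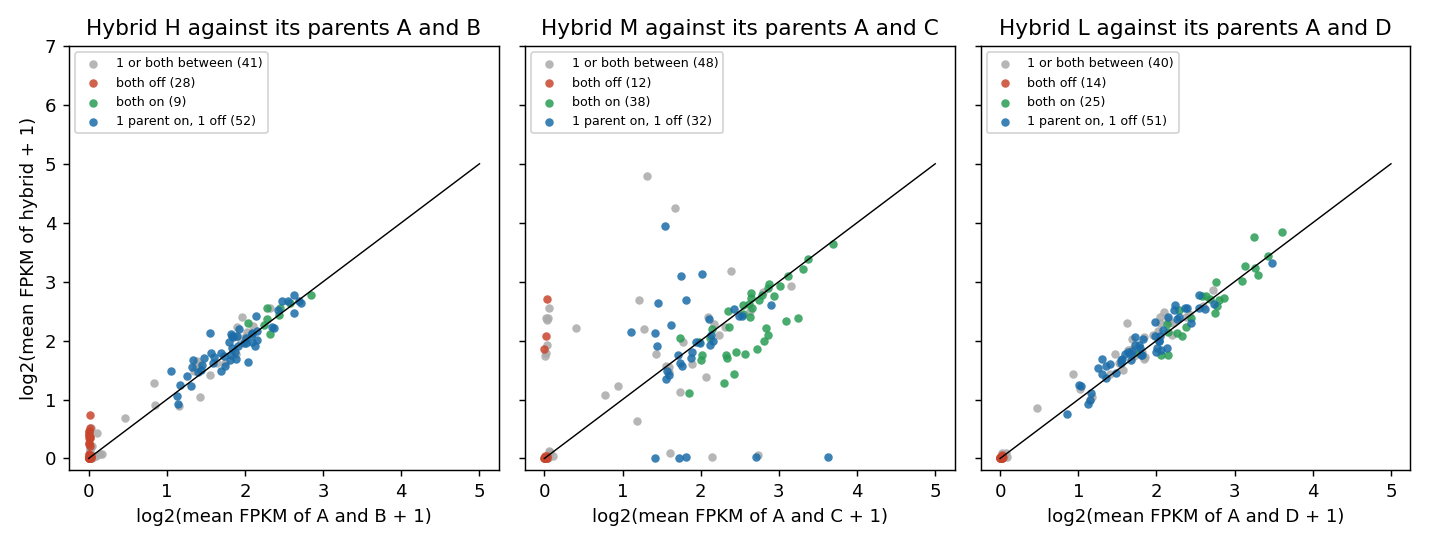
Mean of each hybrid over its 9 libraries (y axis) against the mean of its 2 parents (x axis), both as log2(FPKM + 1), for the 130 genes, coloured by the states of those parents. The line marks equality. Points of H and L follow it, apart from the H genes off in both parents that lie up to 0.663 FPKM, while M has genes at 0, genes far above the line and a band of genes on in both parents below it.

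The largest of the first kind was MSTRG.18443, with no name, which had the highest mean over its on parents of all members (22.8 FPKM). C alone was on, at 5.77, 4.4 and 3.84 FPKM in leaf, 33, 36.7 and 38.6 in flower buds and 37.5, 28.8 and 16.2 in ovule. No M library exceeded 0.0922 FPKM, and L was at 0 throughout. MSTRG.26371, also on in C alone (2.82, 4.08 and 6.9 FPKM), was at exactly 0 in all 9 M libraries, and so was MSTRG.48363 (1.17, 3.39 and 6.28 in C). MSTRG.20976 was at 1.78, 4.55 and 8.05 FPKM in C and at most 0.0981 in M. In these 4 genes the means of B and D were below 0.1 FPKM as well.

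MSTRG.9109 was the exception among them, since all 3 fathers were on. Its lowest, median and highest libraries were 5.41, 9.66 and 13 FPKM in B, 9.4, 10.5 and 13.8 in C, and 5.96, 9.53 and 14 in D, with A at 0.0645 at most. H (3.51, 5 and 8.58) and L (4.29, 5.03 and 10.8) were intermediate, but M was at 0 in 7 libraries, with 0.147 and 0.0345 in the others. H exceeded M by 2.6 ± 0.24 for leaf, 2.62 ± 0.1 for flower buds and 2.59 ± 0.28 for ovule on the log2 scale (limma adjusted p = 0.00405, 0.000113 and 0.0132). MSTRG.49204 behaved alike in M: it was on in B (2.23, 8.94 and 11.7) and C (7.4, 11.6 and 15.8), H ran from 2.81 to 6.19, and no M library exceeded 0.0891 FPKM.

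In the opposite direction, MSTRG.33259 was off in A (at most 0.0777 FPKM) and C (at most 0.0989), and on in B (4.94, 8.91 and 20.1) and D (7.06, 10.6 and 15.5). M nevertheless ran from 2.91 over 5.55 to 9.9 FPKM, overlapping H (3.29, 4.68 and 8.73) and L (3.08, 4.81 and 7.68). MSTRG.10768 had the same parents on and off, and M ran from 1.2 over 3.44 to 5.61 FPKM, beside 1.16 to 4.85 in H and 1.79 to 4.54 in L. MSTRG.3111, on in B alone (2.21, 4.58 and 6.7), was at 0 in all 18 libraries of A and C. M held 4.08, 3.61 and 4.37 FPKM in leaf, 0.28, 2.24 and 2.22 in flower buds and 3.05, 1.03 and 2.56 in ovule. Of the 9 genes of this kind, B was on at 8 and D at 6. How often B and D were on over all 24 genes with A off and C below 0.1 was not counted. Of the 12 genes off in both A and C, the M mean was above 1 FPKM at 3 and below 0.1 at 9. The 3 were MSTRG.33259, MSTRG.10768 and MSTRG.3111, all on in B. D alone was on at 8 of the 12, and these were among those below 0.1 in M.

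At 13 genes on in both A and C, M lay at 0.363 to 0.59 of their mean, with a median of 0.494. B was below 0.4 FPKM at all 13, and D was on at 3 of them. MSTRG.16139 ran from 6.04 over 7.66 to 13.7 FPKM in A and from 6.8 over 9.07 to 11.6 in C. M (3.25, 4.51 and 5.11) did not overlap either parent, whereas L (6.33, 8.17 and 10.5) did. H, whose father B was off, was at 3.07, 3.81 and 4.6 FPKM. MSTRG.14128, on in A alone (2.97, 6.41 and 9.15), showed the reverse, with M at 5.5, 8.09 and 9.58 FPKM against 1.71 to 4.76 in H and 1.44 to 4.08 in L.

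At 4 of the genes on in C and off in A, the M mean was at least 1.4 times that of C. MSTRG.51460 ran from 2.48 over 4.06 to 5.05 FPKM in C and from 2.09 over 3.41 to 5.01 in D, with A and B off. M ran from 12.8 over 13.7 to 17.9 FPKM, wholly above both, and L from 1.12 over 1.82 to 4.18. M was above L by 2.15 ± 0.35 in leaf and 2.65 ± 0.31 in ovule (limma adjusted p = 0.0257 and 0.0157), and by 2.38 ± 0.4 in flower buds, where the adjusted p of 0.13 did not pass. Where A was between, MSTRG.49675, at 1.42, 2.39 and 6.52 FPKM in C, was at 18.9, 26.3 and 32.5 in M, and MSTRG.46854, at 2.27, 3.86 and 7.28 in C, was at 11.6, 18.4 and 23.9 in M. MSTRG.26769 (Gh_D05G3549), a CRM-domain RNA-binding protein of a family known in plants for splicing of organelle introns, was at 1.47, 2.37 and 3.24 FPKM in C and 1.98, 3.63 and 4.76 in M, so that its ranges overlapped. What sets M apart from A and C was not tested.

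The H libraries that stood apart held low levels at genes that were on in C, though not at all of them. MSTRG.51460, off in A and B, was at 0.0966, 1.26 and 1.72 FPKM in H leaf, 0, 0 and 1.79 in flower buds, and 0, 0 and 1.1 in ovule. MSTRG.46854 was at 0.11, 1.3 and 1.1 FPKM in H leaf and at 0, 0 and 1.36 in flower buds, though at 0 in all ovule libraries. Of the 28 genes off in A and B, 16 were on in C. In H leaf library 2 and the 3 libraries numbered 3, these 16 were at or above 0.1 FPKM in 41 of 64 values (64.1%, mean 0.478 FPKM), against 5 of 80 values (6.25%, mean 0.0396 FPKM) in the other 5 H libraries. At the other 12 genes, which were all on in D while C was not on, the counts were 6 of 48 values (mean 0.0486 FPKM) and 3 of 60 (mean 0.0204 FPKM). MSTRG.18443 and MSTRG.26371, among the 16 on in C, had H means of 0.024 and 0 FPKM. Their means were 22.8 and 4.59 FPKM in C, and 0.0162 and 0 in M. MSTRG.51460 had a mean of 0.663 FPKM in H, 3.82 in C and 14.4 in M. The 16 genes were not split by their level in M. What these levels come from was not tested.

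**Figure D4:**
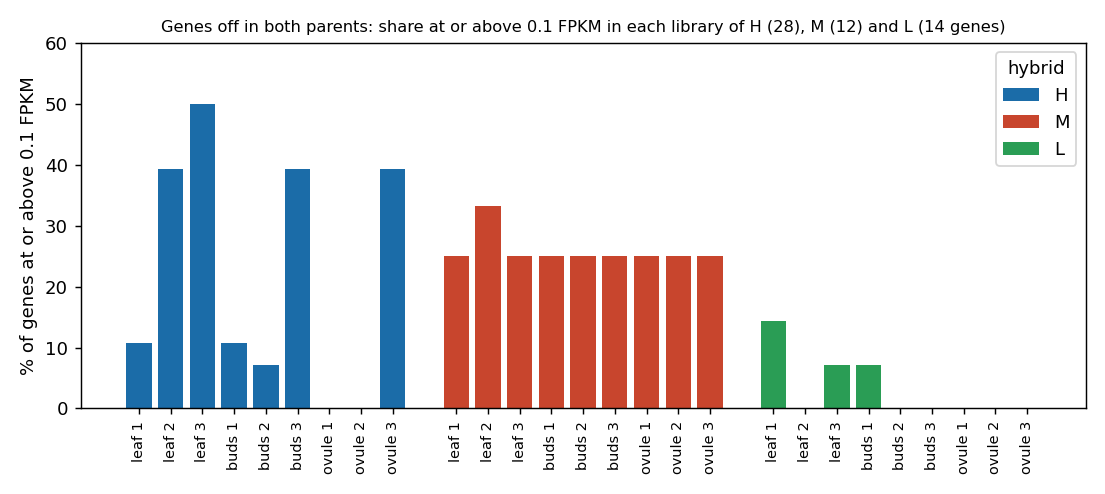
Share of the genes off in both parents that were at or above 0.1 FPKM (y axis, %) in each of the 27 hybrid libraries (x axis), for H (28 genes), M (12) and L (14). H leaf 2, leaf 3, buds 3 and ovule 3 rise to 11 to 14 of 28 genes, M has 3 or 4 of 12 in every library, and L at most 2 of 14.

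The hybrids were compared with each other within each tissue, with limma on log2(FPKM + 1) over all tested genes. A gene was called at a Benjamini-Hochberg adjusted p under 0.05 and a change of more than 1 on the log2 scale, which understates changes of low genes. Among leaf libraries, 52 of the 130 genes were called between H and L (background 0.593% of all tested genes), 37 between M and L (0.496%) and 28 between H and M (0.203%). In flower buds the counts were 27 for H and L (0.122%), 25 for M and L (0.152%) and 21 for H and M (0.143%). In ovule they were 35 for H and L (0.237%), 29 for M and L (0.281%) and 22 for H and M (0.168%). These shares of the 130 genes (16.2 to 40%) lay far above the background, and the members had been chosen for differences among the parents, the fathers included.

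**Figure D5:**
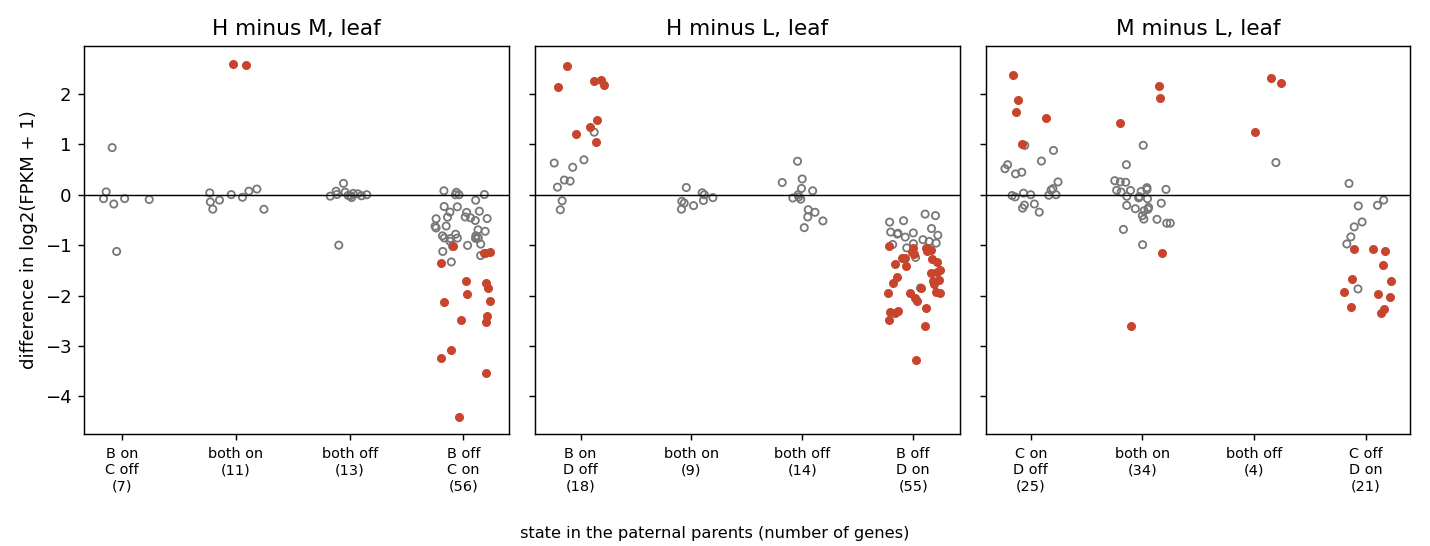
Differences between hybrids in leaf (y axis, log2(FPKM + 1)) by the state of the 2 fathers (x axis, with the number of genes; genes with a father between are not drawn). Filled red points passed the test, open points did not. Between H and L, the called genes with 1 father on and the other off lie on the side of the father that was on, whereas 2 genes on in both B and C lie above 2 in H minus M.

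Between H and L, where 1 father was on and the other off, each called gene was higher in the hybrid of the father that was on. Of the 55 genes on in D and off in B, 36 were higher in L in leaf (background 0.436%), 13 in flower buds (0.0705%) and 21 in ovule (0.152%), and none was higher in H. Of the 18 genes on in B and off in D, 9 were higher in H in leaf (background 0.157%), 10 in flower buds (0.0517%) and 9 in ovule (0.0859%), and none was higher in L. Of the 34 genes with 1 or both fathers between, 7 were called in leaf, 4 for flower buds and 5 for ovule. Of the 9 genes on in both fathers, limma called none in any tissue, with 0, 0 and 2 at an unadjusted p under 0.05. The 14 genes off in both fathers gave no calls, but 6 of them were on in C alone and so had no parental allele that was on in H or L. Without H leaf libraries 2 and 3, H had 1 leaf library left, so no count is given. Without H library 3, 24 members were called in flower buds and 28 in ovule.

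Between H and M this held in part. Of the 56 genes on in C and off in B, 18 were higher in M in leaf (background 0.115%), 12 in flower buds (0.0862%) and 13 in ovule (0.0859%), and none in H. None of the 7 genes on in B and off in C was called by limma, with 2, 1 and 1 at an unadjusted p under 0.05 in leaf, flower buds and ovule. Of the 43 genes with 1 or both fathers between, 8 were called in leaf (5 higher in H) and 7 each in flower buds and ovule (5 higher in H in both). Of the 11 genes on in both B and C, MSTRG.9109 and MSTRG.49204 were called higher in H in leaf (background 0.0883%), flower buds (0.0564%) and ovule (0.0825%). Without the H libraries named above, 24, 20 and 20 members were called in leaf, flower buds and ovule.

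Between M and L, 5 of the 25 genes on in C and off in D were higher in M in leaf (background 0.18%), 3 in flower buds (0.0831%) and 4 in ovule (0.143%). Of the 21 genes on in D and off in C, 12 were higher in L in leaf (background 0.317%), and 9 each in flower buds (0.069%) and ovule (0.138%). Although both fathers were off at 4 genes, 3 of these were higher in M in leaf, 2 in buds and 1 in ovule. Among the 34 genes on in both C and D, 5 were called in leaf and 3 in each of the other tissues, and of the 46 genes with 1 or both fathers between, 12, 8 and 12 were called in leaf, flower buds and ovule.

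Few members were called between tissues in the hybrids, and the choice of genes on or off in all 3 tissues of a parent favours this. The fit also averages the change over H, M and L, so a gene near 0 in some hybrids shows a smaller change. MSTRG.52712, at 0 in H and M, rose in L from a mean of 1.44 FPKM in leaf to 7.46 in ovule. Its averaged change was 0.60, below the limit for a call. Low shares here therefore do not show that the expressed copies varied little. Over all tested genes, flower buds and ovule were higher than leaf by a median of 0.14 and 0.13 on the log2 scale. Between leaf and flower buds 4 members were called (3.08%, background 14.4%), between leaf and ovule 6 (4.62%, background 19.3%), and between flower buds and ovule 2 (1.54%, background 10.9%), or 4 without the H libraries that stood apart and 1 without L ovule libraries 2 and 3. The ribosomal protein gene MSTRG.36863 was lower in flower buds than in leaf by -1.17 ± 0.15 and lower in ovule by -1.05 ± 0.15 (limma adjusted p = 3.28e-07 and 1.32e-06). The kelch protein gene MSTRG.7413 was higher in ovule than in leaf by 1.36 ± 0.24 (limma adjusted p = 2.24e-05).

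The difference between hybrids varied with tissue at 12 members (9.23%, background 2.12%) by the limma interaction test. At a gene near 0 in some hybrids, any tissue change in another hybrid counts as such a difference. Members were chosen for on and off parents, so the share above the background cannot be read as a result about them. The count fell without the H libraries that stood apart and without L ovule libraries 2 and 3, which left 1 library in H leaf or L ovule. With hybrid and library number as a block it was 6. MSTRG.10561, on in C, had M at 8.32, 9.46 and 9.06 FPKM in leaf, 6.53, 8.28 and 6.75 in flower buds, and 3.59, 3.91 and 3.87 in ovule, with H and L below 0.1 throughout (adjusted p = 0.0003). C fell over the same tissues, from 18.8 to 24.7 FPKM in leaf to 7.99 to 9.53 in ovule. MSTRG.49258 had M at 8.04, 7.35 and 7.16 FPKM in leaf and 6.62, 7.93 and 8.91 in flower buds, but 0.396, 0.37 and 0.173 in ovule (adjusted p = 0.00501). C in ovule held 1.95, 2.37 and 2.67 FPKM, all above M. MSTRG.50179, on in D, had L at 4.9, 3.33 and 3.39 FPKM in leaf and 0.923, 1.47 and 1.61 in ovule (adjusted p = 0.0135), and MSTRG.49878, on in C, had M at 1.27, 0.437 and 1.46 FPKM in leaf and 3.18, 5.4 and 4.13 in ovule (adjusted p = 0.0205). In both the parent that was on showed the same direction, with D at 8.48, 12.3 and 8.68 in leaf against 2.41, 2.78 and 1.52 in ovule for the former. For MSTRG.49878, C held 1.38, 2.44 and 2.12 FPKM in leaf and 10.9, 12.3 and 10.4 in ovule.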

How the data were processed

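RNA was sequenced by the authors from 63 libraries. Per the labels and the study's methods, they removed adapters with Cutadapt, mapped the reads to an upland cotton genome with HISAT (build name: not given in the sources used here), and used StringTie for assembly and, together with Ballgown, for FPKM. The deposited FPKM values were used without rescaling. The 3 libraries per group are biological replicates per the methods. A further 21 FPKM columns belong to no sample and were not used.

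Genes above 0.5 FPKM in at least 1 of 21 libraries of a tissue were tested, which all 130 members were, through their on parent. Hybrids were fitted with limma 3.58.1 (R 4.3.3; trend and robust) on log2(FPKM + 1), per tissue, and with p adjusted over all tested genes. Tissue and interaction contrasts used 1 fit over 27 hybrid libraries. The fit was tested on simulated data. Other steps used Python 3.11.15, numpy 2.4.6, pandas 2.3.3 and matplotlib 3.10.9. Alternatives were pseudocount, filter, TMM scaling (the trimmed mean of M values), the 7 genotypes in 1 fit, unadjusted p, a replicate block and libraries left out.

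The members and lists were chosen with earlier results of these data known. Named genes are the highest of each pattern, the 10 largest hybrid differences and the highest of each gene list. Also named are genes on in a hybrid with both its parents off, or off in a hybrid with at least 1 parent on. Those nearest the limits and the 5 smallest interaction p were named too. Other described members, members named for departures of M and MSTRG.20076 with its neighbour were added after their values were seen. None of the 21 member names was found in the RefSeq gene table at hand (0 matched).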

Additional observations from a re-analysis of the deposited data

Results flagged for a closer look

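The difference between the 3 hybrids varied with tissue at 12 members by the limma interaction test. Where some hybrids are near 0, a tissue change in another hybrid is enough for this. The adjusted p was 0.0003 for MSTRG.10561, 0.00501 for MSTRG.49258, 0.0135 for MSTRG.50179, 0.0201 for MSTRG.18737, 0.0205 for MSTRG.49878, 0.0217 for MSTRG.896 and 0.024 for MSTRG.37494. It was 0.0254 for MSTRG.51214, 0.0354 for MSTRG.19215, 0.0362 for MSTRG.52712, 0.0372 for MSTRG.23053 and 0.0394 for MSTRG.7649. MSTRG.18737, on in B with A and D off and C between, was higher in flower buds of H (3.87, 4.56 and 9.42 FPKM) and M (7.12, 3.62 and 3.39) than in their leaves, and at or near 0 in L. MSTRG.52712, on in D, ran in L from 1.65, 1.93 and 0.723 FPKM in leaf to 5.84, 6.83 and 9.69 in ovule, and was at 0 in H and M. Their number depends on single libraries, as given below. No test for outlying samples was run, since each group had 3 libraries.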

How the results depend on the processing

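Members counted at a stricter off limit of 0.05 FPKM were 69, while 163 to 169 were found when 1 replicate number was left out of the rule. Counts of calls between hybrids moved by over 1.5 times in the following settings. With no filter, 14 members were called between H and M in leaf. With the 7 genotypes in 1 fit, 44 were called between H and L and 39 between M and L in flower buds. That fit took its spread from the parents' libraries as well. Their values chose the members, so these counts are not independent of the choice. At an unadjusted p the flower bud counts were 36 (H and M), 49 (H and L) and 44 (M and L), and 53 for H and L in ovule. Without both H leaf libraries 2 and 3, chosen after seeing the data, 31 were called between H and L. A pseudocount of 0.1 gave 10 members between leaf and flower buds, 16 between leaf and ovule, 6 between flower buds and ovule, and 3 for the interaction. Without the H libraries that stood apart, also chosen after seeing the data, 4 were called between flower buds and ovule. The interaction count, with 1 H leaf library left, fell by over 1.5 times. Without L ovule libraries 2 and 3, whose total FPKM was 477167 and 477980 against 429211 in library 1, 1 was called between flower buds and ovule. The interaction count, with 1 L ovule library left, fell by over 1.5 times as well.

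Nothing in the labels says that a replicate number marks a shared plant or batch. Over all tested genes, same-number deviations of different hybrids correlated at -0.042 to 0.05 for leaf, -0.10 to 0.27 for flower buds and 0.0060 to 0.073 for ovule (other numbers in ovule -0.060 to 0.016), so not every pair passed 0.1. Across tissues of 1 hybrid they ran from -0.084 to 0.084 over all tested genes. Over the members they ran from -0.094 to 0.33 in H, -0.24 to 0.17 in M and -0.095 to 0.375 in L. Of 9 pairs each, 5, 1 and 4 were above 0.1. Pairs of other numbers reached 0.28 in H, 0.345 in M and 0.31 in L over the members. The fit over 27 libraries takes the libraries as independent. With a replicate block within each hybrid, added after seeing the data, 6 members were called for the interaction. With the replicate block, 17 members were called between H and M and 24 between M and L in leaf, and 13 between H and L and 16 between M and L in flower buds. The other counts stayed within 1.5 times.

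With 1 library left out, 14 to 25 members were called between H and M in leaf (M library 3 gave the lowest, libraries 1 and 2 gave 17 and 15), and 24 to 34 between M and L (24 without M library 1, M library 3 or L library 2). Leaving out a replicate number gave 2 to 4 between leaf and flower buds (2 without number 1) and 0 to 16 for the interaction. The 0 came without number 2, where the limma test had 20 members at an unadjusted p under 0.05, and number 3 left 1. The medians relative to the on parent were 0.431 to 0.641 for H in leaf, 0.423 to 0.504, 0.505 to 0.556 and 0.476 to 0.569 for M in leaf, flower buds and ovule, and 0.541 to 0.5999 and 0.558 to 0.579 for L in leaf and ovule.

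Apart from libraries left out 1 at a time, 104 values under other settings stayed within 1.5 times (counts) or 1 SD over replicates (medians), and 22 did not, all named above. The study gives total reads per library, but read counts per gene were not at hand. A level below 0.1 FPKM therefore cannot be told from absence here.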
